A study of Mus musculus with 23 samples.

Results

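The genes described here are 46 genes of the cell division machinery. They were listed from general knowledge, but with earlier results of these data known, so their comparison with all genes is descriptive. The list holds the factors that license and copy DNA, the cyclins and Cdk1, and the transcription factors that drive them. It also holds the kinases, motors, kinetochore proteins and proteases of mitosis. A gene was included where a row of the deposited expression table carried its symbol and no other, and the row with the highest mean stood for a gene with several rows. By that rule 45 of the 46 genes were measured, among 19938 genes in all. Ccnb1, which encodes cyclin B1, was not analysed here. All 45 reached a mean of at least 6 on the log2 scale in their highest group, a value used below as a filter on low signal.

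The tissue was ear pinna of 4-week-old female mice. Wild-type mice were Rhbdf2+/+ of the strain C57BL/6J, and mutant mice were Rhbdf2cub/cub of the strain B6.Cg-Rhbdf2cub/J, called cub here. Rhbdf2 encodes iRhom2, a membrane protein that helps the protease ADAM17 to mature, and ADAM17 releases ligands of the EGF receptor, a main growth signal of keratinocytes. Tissue was taken at 0 h from unwounded ears labelled as controls, and at 15 min, 2 h and 24 h after an ear hole of 2 mm had been made; a 3-mm punch then took the rim of 1 mm. No punch size was given for the 0 h samples, so wounding and the piece of tissue taken cannot be told apart in a comparison with 0 h. Each group had 3 arrays, labelled as biological replicates, except cub at 15 min, which had 2.

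A cell that enters the cycle first raises D cyclins and cyclin E, which release E2F transcription factors from the retinoblastoma protein. E2F factors switch on the genes for origin licensing, nucleotide supply and the replication fork. Genes for mitosis are switched on later, in G2, by complexes of MuvB with B-Myb and Foxm1. These bind a short promoter element called CHR and work with NF-Y at CCAAT boxes. At a skin wound, keratinocytes near the edge migrate and those behind them divide, and dividing cells in unwounded skin lie mainly in the basal epidermis, the hair follicle matrix and the sebaceous glands.

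Promoter stretches are shown because the genes for replication and for mitosis, the roles by which the values below are ordered, differ in these elements. RefSeq promoter windows on the GRCm38.p6 assembly, from 250 bases before to 50 after the gene start, were matched for 38 of the 45 genes, with 40 windows. An E2F-type motif (TTTNNCGC, either strand) was found in 9 of 15 windows of replication genes, or 60%, in 0 of 20 windows of mitosis and chromosome genes, and in 5.17% of all 32851 windows. The CHR motif (TTTGAA, either strand) was found in 2 of 15 replication windows, or 13.3%, in 16 of 20 mitosis windows, or 80.0%, and in 17.9% of all windows. The CCAAT box, named by its letters and searched on both strands, was in 12 of 15 and in 16 of 20 of these windows, or 80.0% in both sets, against 37.4% of all windows. Motifs were searched separately, so matches may overlap. A match describes the letters and does not show that a factor binds.

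The stretches below come from these windows, 5′ to 3′ on the gene's own strand, with every match to an E2F, CHR or CCAAT motif in capitals. Mcm6, Mcm5 and Uhrf1 are replication genes with E2F motifs, Cdk1 carries both E2F and CHR motifs, Mki67, Cdc20 and Ube2c are mitosis genes with CHR motifs, and Ccnb2, the cyclin B2 gene, is counted below with the regulators and also holds a CHR motif.
Mcm6 (chr1:128359736-128359825, minus strand): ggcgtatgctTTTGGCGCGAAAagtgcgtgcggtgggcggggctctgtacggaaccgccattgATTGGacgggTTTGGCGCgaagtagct
Mcm5 (chr8:75109349-75109438, plus strand): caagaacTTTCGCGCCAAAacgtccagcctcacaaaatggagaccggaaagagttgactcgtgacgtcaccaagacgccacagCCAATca
Uhrf1 (chr17:56303267-56303336, plus strand): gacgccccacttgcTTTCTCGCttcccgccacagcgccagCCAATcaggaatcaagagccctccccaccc
Cdk1 (chr10:69352913-69353052, minus strand): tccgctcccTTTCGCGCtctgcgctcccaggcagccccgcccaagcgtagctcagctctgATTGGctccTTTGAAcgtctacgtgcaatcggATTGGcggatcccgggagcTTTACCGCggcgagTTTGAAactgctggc
Mki67 (chr7:135716460-135716529, minus strand): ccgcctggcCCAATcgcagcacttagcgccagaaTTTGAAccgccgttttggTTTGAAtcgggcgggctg
Cdc20 (chr4:118437344-118437413, minus strand): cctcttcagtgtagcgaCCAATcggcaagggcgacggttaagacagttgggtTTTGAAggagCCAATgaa
Ube2c (chr2:164769829-164769918, plus strand): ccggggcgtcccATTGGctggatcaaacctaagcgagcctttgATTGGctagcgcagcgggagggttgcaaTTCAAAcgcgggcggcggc
Ccnb2 (chr9:70421570-70421729, minus strand): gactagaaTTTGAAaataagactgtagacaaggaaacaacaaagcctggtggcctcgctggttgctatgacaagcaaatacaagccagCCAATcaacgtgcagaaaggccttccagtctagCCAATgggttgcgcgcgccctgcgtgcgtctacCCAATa

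All values are log2 RMA values, in which a difference of 1 is a doubling. Array medians lay between 6.37 and 6.46. The row for Rhbdf2 stood at 8.70 ± 0.06 in wild type and 9.11 ± 0.04 in cub at 0 h (SD, n = 3 each), but the position of its probes relative to the mutation was not examined, so it does not check the genotype labels. The mean of 8 basal keratinocyte markers lay between 11.14 and 11.44 on the 0 h and 24 h arrays. The 1 array that stood apart in these genes was cub at 2 h, replicate 2, where the 45 genes averaged 7.57, against 7.94 and 7.92 in the other arrays of its group. Since the 45 genes can shift together on an array, counts of them by sign, p value or overlap are not separate results. "Called" below means an adjusted p under 0.05 in limma, with Benjamini-Hochberg adjustment over all genes tested in that comparison.

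**Figure D1:**
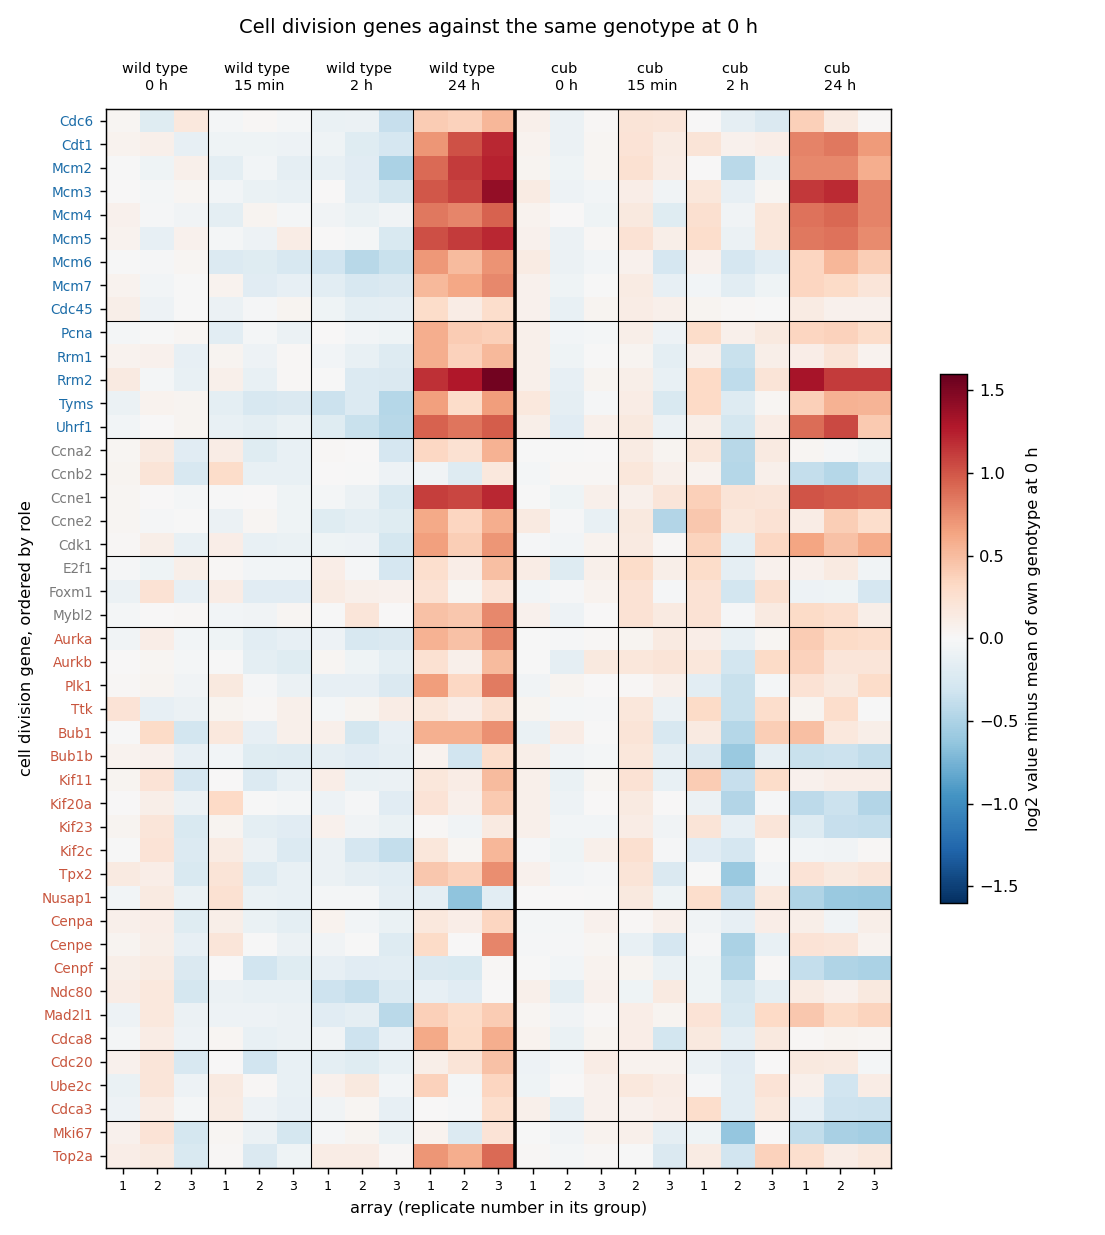
Each row is a cell division gene and each column an array; colour gives the log2 value minus the mean of the same genotype at 0 h (scale -1.6 to 1.6), and lines separate groups and roles. Gene names are blue for replication, grey for cyclins, Cdk1 and transcription factors, and red for mitosis and chromosomes. Most replication genes, at the top, are raised at 24 h in both genotypes, several mitosis genes are below their 0 h level at 24 h in cub, and the 2 h cub array labelled replicate 2 is pale to blue over most genes.

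In wild-type ears 24 h after the punch, 27 of the 45 genes rose, and 0 fell. Replication genes made up 14 of the 27: every one of the 14 measured replication genes rose, with a median log2 difference of 0.75. Of 8 cyclin, Cdk1 and transcription factor genes 5 rose (median 0.44), and of 23 mitosis and chromosome genes 8 rose (median 0.24). Over all genes tested, 20.5% were called higher and 22.4% lower at this time (42.8% in all), with a median of −0.02, against a median of 0.43 for the cell division genes. The wild-type arrays at 24 h and 0 h did not overlap for 29 of the 45 genes, against 48.9% of all genes. Ear tissue is a mixture of cell types, so more cells with these transcripts and more RNA per cell cannot be told apart here.

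Mcm2 to Mcm7 encode the subunits of the helicase that is loaded at replication origins. Mcm2 stood at 8.53, 8.47 and 8.62 on the wild-type 0 h arrays and at 9.45, 9.66 and 9.77 at 24 h. All 3 wounded arrays lay above all 3 unwounded ones, and the difference was 1.09 ± 0.11 (SE, limma, adjusted p = 2.74e-08). Mcm3 went from 7.04, 7.01 and 7.07 to 8.04, 8.12 and 8.45, a rise of 1.16 ± 0.11 (limma adjusted p = 1.28e-08). Mcm5 went from 8.19, 8.01 and 8.21 to 9.17, 9.26 and 9.34, a rise of 1.12 ± 0.09 (limma adjusted p = 1.32e-09). In both genes the groups were separated by more than their own range.

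The remaining helicase subunits moved the same way by smaller amounts. Mcm4 rose by 0.86 ± 0.08, Mcm6 by 0.64 ± 0.09 and Mcm7 by 0.63 ± 0.08. Cdt1, which loads the helicase onto origins, rose by 0.98 ± 0.09 from 7.98, 8.0 and 7.79 to 8.63, 8.94 and 9.13. The smallest rises of this group were those of Cdc6, the partner of Cdt1 in loading, from 6.50 ± 0.18 to 6.93 ± 0.09, and of Cdc45, which activates the loaded helicase, from 7.45 ± 0.09 to 7.68 ± 0.10 (SD, n = 3 each).

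Genes for nucleotide supply and the fork rose as well, 5 of 5. Rrm2 encodes the small subunit of ribonucleotide reductase, which is made mainly in S phase. It stood at 8.38, 8.20 and 8.12 in wild type at 0 h and at 9.40, 9.52 and 9.78 at 24 h. Its rise of 1.33 ± 0.14 (limma adjusted p = 5.88e-08) had the largest value among the 45 genes in this comparison. Rrm1, the large subunit of the same enzyme, went from 9.71 ± 0.11 to 10.20 ± 0.11. Uhrf1, which carries DNA methylation through replication, rose by 0.92 ± 0.12. Pcna, the sliding clamp of the polymerases, rose by 0.46 ± 0.07 (limma adjusted p = 6.23e-06) and gave the same 0.46 on its second row. Tyms, which makes thymidylate, went from 8.54 ± 0.09 to 9.08 ± 0.21.

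Among the regulators, Ccne1, which encodes the cyclin that starts S phase, moved most. It was at 7.21, 7.18 and 7.15 in wild type at 0 h and at 8.29, 8.25 and 8.38 at 24 h, a rise of 1.13 ± 0.06 (limma adjusted p = 5.66e-12). Cdk1, the kinase of mitotic entry, was at 8.80, 8.88 and 8.67 and then at 9.44, 9.18 and 9.49, a rise of 0.59 ± 0.11 (limma adjusted p = 0.000151). Ccne2, Ccna2 (cyclin A2, of S phase and G2) and Mybl2 (B-Myb) also rose. E2f1 was at 7.61 ± 0.09 and 7.90 ± 0.19, a difference of 0.28 ± 0.11 that was not called (limma adjusted p = 0.0504) and was called in 7 of 13 alternative settings. Foxm1 and Ccnb2 (cyclin B2) were not called, at differences of 0.16 ± 0.12 and −0.03 ± 0.13.

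Mitosis genes were uneven. Bub1, a checkpoint kinase, rose by 0.62 ± 0.18 (limma adjusted p = 0.00582), from 6.59, 6.90 and 6.30 to 7.17, 7.16 and 7.33. Aurka, the kinase of centrosome and spindle, rose by 0.60 ± 0.07 (limma adjusted p = 7.5e-07), from 7.01, 7.17 and 7.02 to 7.62, 7.54 and 7.83. Top2a, which untangles chromosomes, rose by 0.73 ± 0.13 (limma adjusted p = 6.24e-05), from 8.39, 8.43 and 8.04 to 8.99, 8.87 and 9.19. In all 3 genes the wounded arrays lay above the unwounded ones. The other called mitosis genes were Plk1, Tpx2, Cenpe, Mad2l1 and Cdca8. Cenpe went from 5.84 ± 0.12 to 6.20 ± 0.39 (SD, n = 3 each, limma adjusted p = 0.0396). Its groups overlapped and its 0 h mean lay below the low-signal value of 6, so its rise is uncertain.

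Mki67 did not follow. It encodes Ki-67, the surface protein of mitotic chromosomes that is used as a marker of cycling cells. Its wild-type values were 9.35, 9.5 and 9.01 at 0 h and 9.34, 9.07 and 9.5 at 24 h. The groups overlapped almost fully, and the difference was 0.02 ± 0.14 (limma adjusted p = 0.946); its sign turned without wild-type 0 h replicate 3 (−0.12), without wild-type 24 h replicate 3 (−0.08) and under quantile normalization (−0.03). Nusap1, a microtubule-binding spindle protein, lay at 8.22 ± 0.13 and then 7.90 ± 0.28, and Cenpf, of the outer kinetochore, at 7.08 ± 0.20 and 6.93 ± 0.15, neither of them called.

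**Figure D2:**
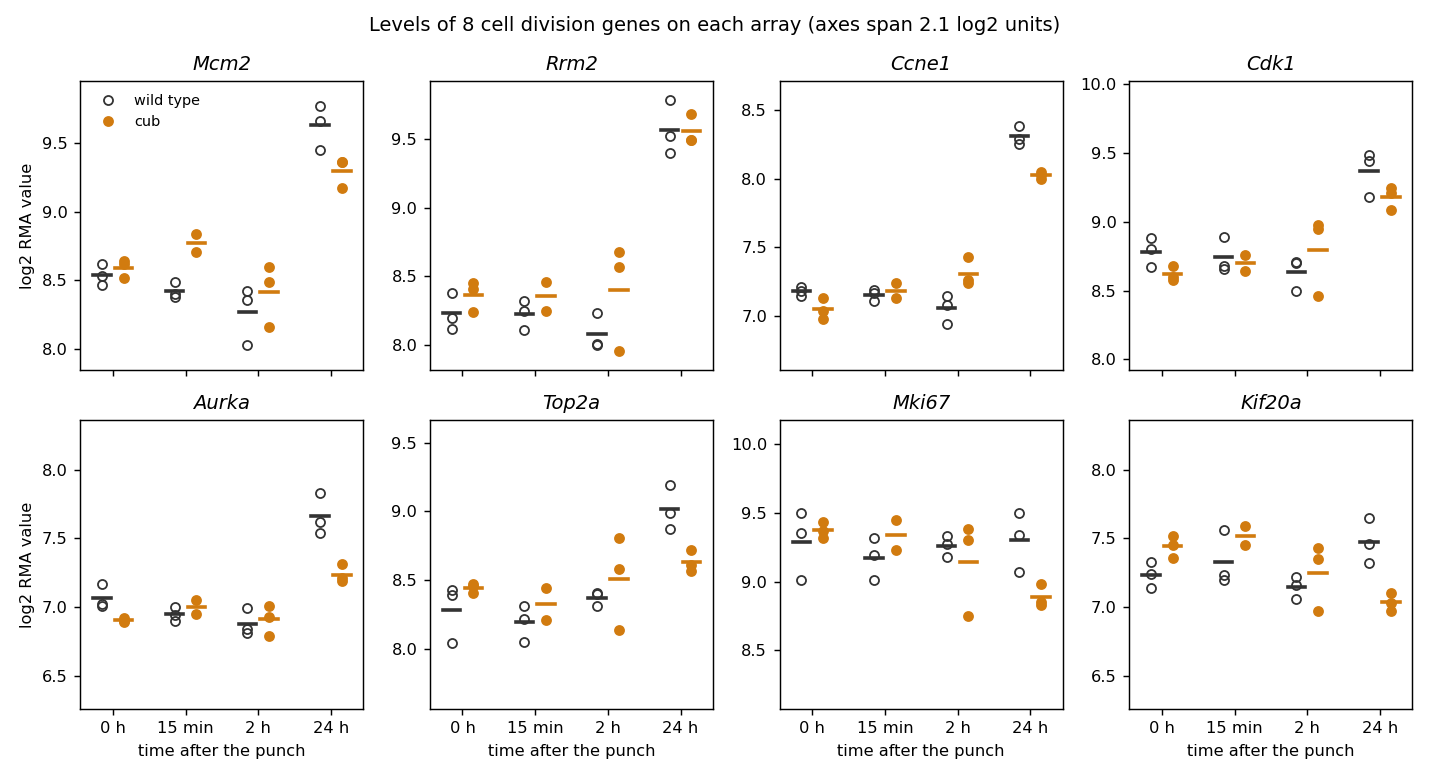
Log2 RMA values (vertical axes, each spanning 2.1 log2 units) of 8 cell division genes at each time after the punch (horizontal axes); circles are single arrays, open for wild type and filled for cub, and short lines are group means. Mcm2, Rrm2, Ccne1 and Cdk1 are raised at 24 h in both genotypes, Mki67 and Kif20a in cub at 24 h lie below cub at 0 h, and Top2a and Aurka are higher in wild type than in cub at 24 h on every array.

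In cub ears at 24 h, 16 of the 45 genes rose and 8 fell. Over all genes tested, 21.1% were called higher and 24.9% lower (46% in all), and the median was 0.00, against 0.18 for the cell division genes. The arrays at 24 h and 0 h did not overlap for 29 of the 45 genes, against 50.5% of all genes. Of 14 replication genes 11 rose and 0 fell (median 0.60), of 23 mitosis and chromosome genes 2 rose and 7 fell (median 0.09), and of the 8 regulators 3 rose and 1 fell (median 0.14). The 8 of 45 genes that fell, and the 7 of 23, stand beside 24.9% lower among all genes, and the roles were not tested against each other.

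Among the replication genes of cub, Rrm2 stood at 8.45, 8.24 and 8.41 at 0 h and at 9.68, 9.49 and 9.49 at 24 h, a rise of 1.19 ± 0.14 (limma adjusted p = 2.33e-07). Mcm3 rose by 1.04 ± 0.11, from 7.12, 6.91 and 6.95 to 8.12, 8.19 and 7.79. Mcm4 rose by 0.86 ± 0.08, with the same value as in wild type. Mcm2 rose by 0.70 ± 0.11 (limma adjusted p = 8.94e-06), from 8.64, 8.52 and 8.62 to 9.36, 9.36 and 9.17. In these genes every 24 h array lay above every 0 h array.

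Smaller rises were called for Mcm5 (0.83 ± 0.09), Uhrf1 (0.79 ± 0.12), Cdt1 (0.78 ± 0.09) and Tyms (0.49 ± 0.12). Pcna rose by 0.34 ± 0.07 (limma adjusted p = 0.00021), and Mcm6 and Mcm7 rose as well. Of the regulators, Ccne1 rose by 0.98 ± 0.06, from 7.04, 6.98 and 7.13 to 8.05, 8.03 and 8.0, and Cdk1 rose by 0.56 ± 0.11, from 8.60, 8.58 and 8.68 to 9.25, 9.09 and 9.21. Mybl2 also rose. The 2 mitosis genes that rose were Aurka, by 0.33 ± 0.07 (limma adjusted p = 0.000652), and Mad2l1, a checkpoint protein.

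The 8 genes that fell in cub were Ccnb2, of the regulators; the checkpoint kinase Bub1b; the kinesins Kif20a and Kif23, which build the central spindle and midbody; the spindle protein Nusap1; Cenpf; Cdca3, which helps to degrade the Cdk1 inhibitor Wee1; and Mki67. Mki67 stood at 9.37, 9.32 and 9.43 in cub at 0 h and at 8.98, 8.85 and 8.83 at 24 h. All wounded arrays lay below all unwounded ones, and the difference was −0.49 ± 0.14 (limma adjusted p = 0.00616). Nusap1 stood at 8.10, 8.10 and 8.09 and then at 7.61, 7.5 and 7.49, a difference of −0.56 ± 0.14 (limma adjusted p = 0.00185). The differences of the 8 genes ran from −0.27 to −0.56, and 0 of the 8 were called higher in wild type. The count that fell was 5 without cub 0 h replicate 1 and 5 without cub 24 h replicate 2. Of the 7 of these genes with a promoter window, 6 held CHR and CCAAT motifs, among them Mki67 and Ccnb2 printed above. Nusap1 held neither, and 0 of the 7 held an E2F motif. In the whole mitosis and chromosome set, 80.0% of windows held CHR, 80.0% CCAAT and 0 of 20 E2F. These motifs are thus common in the set that all but Ccnb2 came from. The share of all windows with both CHR and CCAAT was not counted. Aurka and Mcm2, which rose in cub, also held both CHR and CCAAT motifs. Cdc20 and Ube2c, whose stretches hold the same motifs, were not called in either genotype.

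Set side by side, all 16 genes that rose in cub also rose in wild type, which is 59.3% of the 27 wild-type genes and 100% of the 16 cub genes. The same overlap among all genes is not given here, so these shares have no background to be read against. The 11 genes called in wild type and not in cub were Cdc6, Cdc45, Rrm1, Ccna2, Ccne2, Plk1, Bub1, Tpx2, Cenpe, Cdca8 and Top2a. Top2a in cub was at 8.46, 8.41 and 8.47 at 0 h and at 8.72, 8.57 and 8.61 at 24 h, a difference of 0.19 ± 0.13 (limma adjusted p = 0.264). Its second row, at a mean of 3.60, gave differences of 0.33 in cub and 0.22 in wild type, so the rows disagree in size; with the mean of both rows, or with only the groups compared, Top2a was called higher in cub.

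**Figure D3:**
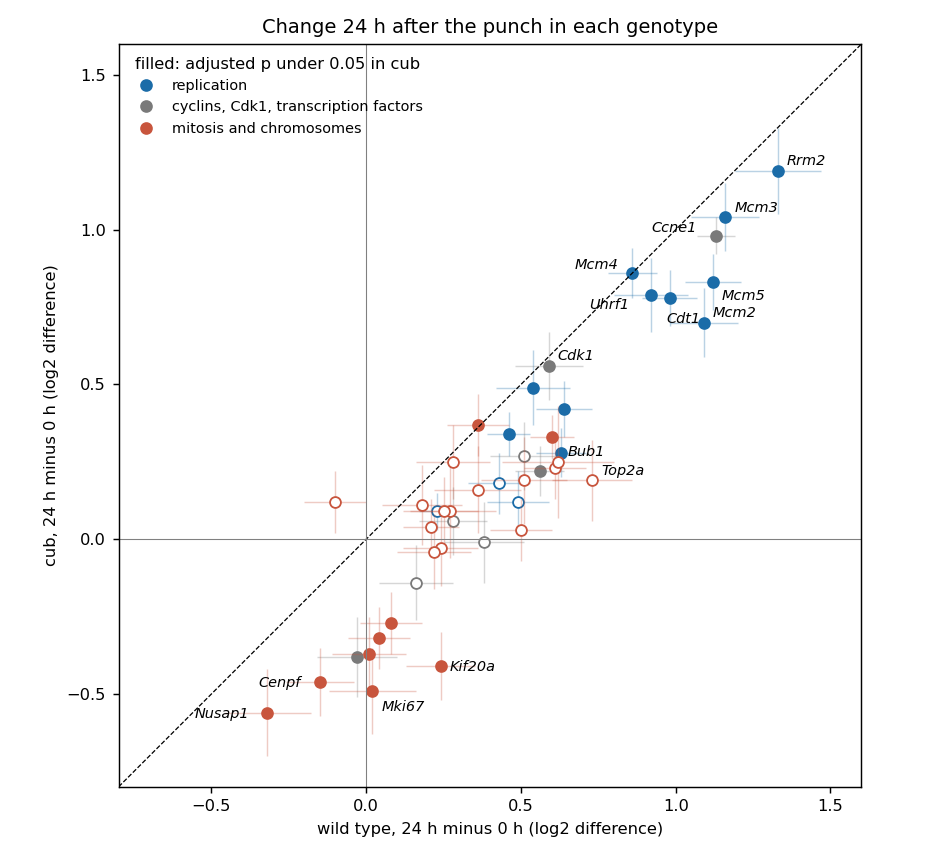
Log2 difference between 24 h and 0 h in wild type (horizontal) and in cub (vertical) for the 45 cell division genes, with bars of 1 standard error and a dashed line of equal change; filled points were called in cub. Replication genes (blue) lie toward the upper right, up to Rrm2 at 1.33 and 1.19, while 7 mitosis genes (red) and Ccnb2 (grey) are called below 0 in cub, down to Nusap1 at −0.56.

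Whether the change from 0 h to 24 h differed between the genotypes was tested by the interaction, the cub change minus the wild-type change. It was called for 1 of the 45 genes, Kif20a, against 1% of all genes in either direction and 0.747% lower. Kif20a was at 7.24, 7.33 and 7.14 in wild type at 0 h and at 7.46, 7.32 and 7.65 at 24 h, while in cub it was at 7.52, 7.36 and 7.45 and then at 7.03, 7.10 and 6.97. The interaction was −0.65 ± 0.15 (limma adjusted p = 0.0431), and this call was lost in 13 of 19 alternative settings, with adjusted p up to 0.115. The interaction lay below 0 for 42 of the 45 genes, with a median of −0.25 against 0.00 for all genes; the exceptions were Ndc80, Mad2l1 and Mcm4, the last at 0. An unadjusted p under 0.05 was seen for 15 genes, against 11% of all genes. As the genes share their arrays, neither count is made of separate results. For Mki67 it was −0.50 ± 0.20 (limma adjusted p = 0.306), for Top2a −0.54 ± 0.18 (limma adjusted p = 0.188), and for Rrm2 −0.15 ± 0.19 (limma adjusted p = 0.887). Apart from Kif20a, then, no gene of the 45 was shown to change differently in the genotypes between 0 h and 24 h.

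Compared directly at 24 h, 12 of the 45 genes were lower in cub than in wild type and 0 were higher. Among all genes tested, 3.44% were called lower and 2.24% higher (5.68% in all), and the median difference was 0.00 against −0.29 for the cell division genes. The difference was below 0 for 44 of the 45 genes. Ndc80, of the outer kinetochore, was the exception at 0.02. The 45 genes averaged 8.29, 8.17 and 8.45 on the wild-type arrays and 8.07, 8.03 and 7.97 on the cub arrays. Genes that shift together on these few arrays do not give separate results, so the counts here describe the list as a whole. An unadjusted p under 0.05 was seen for 32 of the 45, against 18.5% of all genes, and the arrays of the genotypes did not overlap for 29, against 18.3% of all genes. The lower genes came from each set: 5 of 14 replication genes, 3 of 8 regulators and 4 of 23 mitosis and chromosome genes, with medians of −0.28, −0.30 and −0.29.

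The largest of these differences was that of Ccne2, the other cyclin E gene, which stood at 8.08, 7.82 and 8.06 in wild type and 7.30, 7.58 and 7.47 in cub (−0.54 ± 0.11, limma adjusted p = 0.00748). Aurka was at 7.62, 7.54 and 7.83 in wild type and 7.31, 7.21 and 7.19 in cub (−0.43 ± 0.07, limma adjusted p = 0.00158). Mcm7 was at 9.09, 9.19 and 9.34 in wild type and 8.83, 8.79 and 8.68 in cub (−0.44 ± 0.08, limma adjusted p = 0.00158). For each of these genes every cub array lay below every wild-type array.

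Cdca8, or borealin, which anchors Aurora B at centromeres, was at 7.56, 7.26 and 7.54 in wild type and 6.98, 7.0 and 6.99 in cub (−0.46 ± 0.10, limma adjusted p = 0.0104). Mcm6 was at 8.88, 8.70 and 8.91 against 8.34, 8.52 and 8.39 (−0.41 ± 0.09, limma adjusted p = 0.00825). The calls of Ccne2, Aurka, Mcm7, Cdca8 and Mcm6 held in all 13 alternative settings.

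The other 7 called genes lost their call in 3 or 4 of the 13 settings. They were Cdca3 (−0.45 ± 0.10), Kif20a (−0.44 ± 0.11), Rrm1 (−0.39 ± 0.10), Mybl2 (−0.36 ± 0.08), Pcna (−0.28 ± 0.07, and −0.29 on its second row), Ccne1 (−0.28 ± 0.06) and Cdc45 (−0.26 ± 0.06). Not called were Mki67 at −0.42 ± 0.14 (limma adjusted p = 0.0856), Top2a at −0.38 ± 0.13 (limma adjusted p = 0.0825), Mcm2 at −0.33 ± 0.11 (limma adjusted p = 0.0731), E2f1 at −0.26 ± 0.11 (limma adjusted p = 0.215) and Cdk1 at −0.19 ± 0.11 (limma adjusted p = 0.406). Rrm2, with the largest rise in both genotypes, was level between them at −0.01 ± 0.14 (limma adjusted p = 0.981). The count of 12 was 5 without cub 24 h replicate 3, 6 without wild-type 24 h replicate 3, 6 when only the 24 h arrays were fitted, and 17 without wild-type 24 h replicate 2; every gene called in these fits was lower in cub. Mki67 was called without wild-type 24 h replicate 2 (adjusted p = 0.0466) and Mcm2 without wild-type 24 h replicate 1 (adjusted p = 0.0406).

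**Figure D4:**
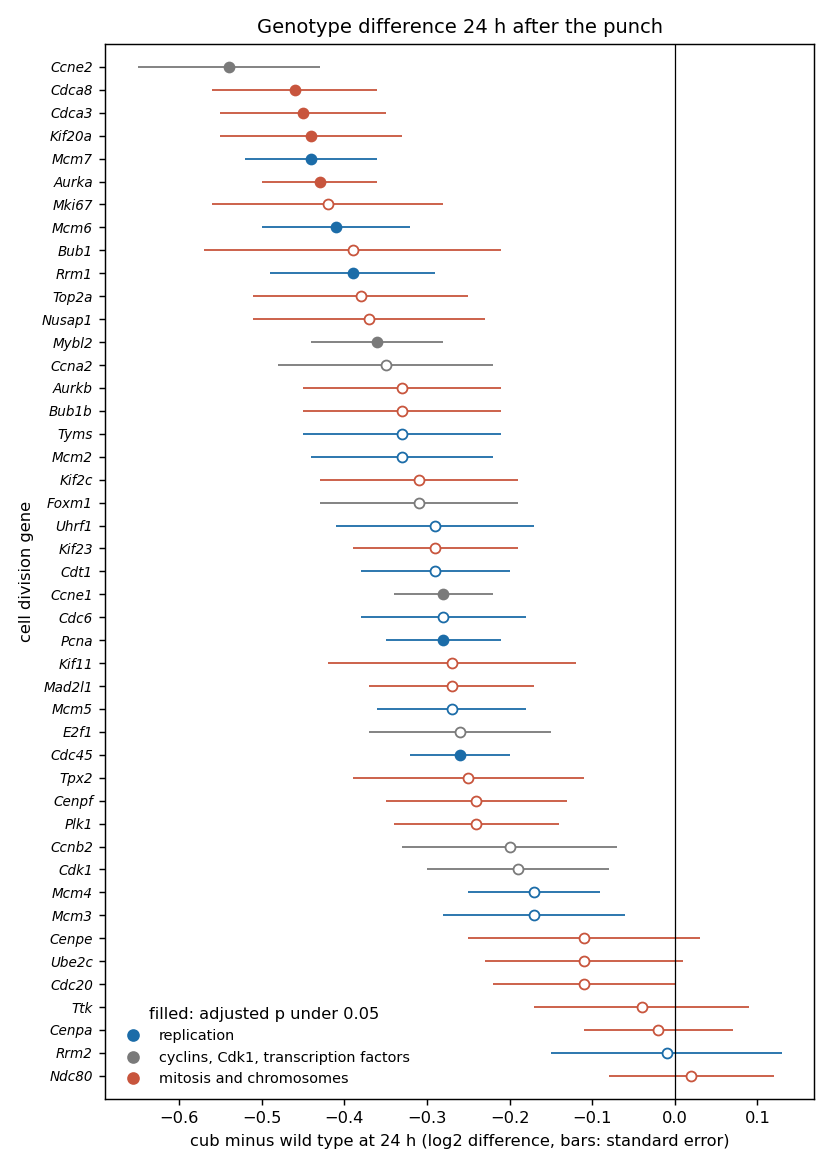
Log2 difference cub minus wild type at 24 h (horizontal axis) for each of the 45 cell division genes (vertical axis, in order of the difference), with bars of 1 standard error; filled points were called. Values run from −0.54 for Ccne2 to 0.02 for Ndc80, and the 12 called genes include replication, regulator and mitosis genes.

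Markers of other cells moved in the same comparisons. The mean of 9 neutrophil markers went from 5.61 ± 0.08 to 9.62 ± 0.18 in wild type and from 5.60 ± 0.11 to 10.03 ± 0.26 in cub between 0 h and 24 h (SD, n = 3 each), with 9 of 9 called higher in both. At 24 h, 2 of the 9 were higher in cub, with a median difference of 0.40. Markers of neutrophil precursors, the dividing stage of that lineage in bone marrow, averaged between 5.25 and 5.49 on all 0 h and 24 h arrays. Of 8 macrophage markers, 5 rose and 0 fell in wild type, where their mean went from 8.28 ± 0.08 to 9.04 ± 0.19, and 4 rose and 1 fell in cub, from 8.63 ± 0.26 to 9.20 ± 0.19 (SD, n = 3 each); 0 of the 8 were called between the genotypes at 24 h by limma, with 1 at an unadjusted p under 0.05. All 6 skeletal muscle markers and all 5 measured adipocyte markers fell in both genotypes at 24 h. Beside these marker counts, 20.5% of all genes were called higher and 22.4% lower at 24 h in wild type, and 21.1% and 24.9% in cub. Between the genotypes at 24 h, 2.24% of all genes were higher and 3.44% lower in cub.

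For the cell types that divide in resting skin, 8 basal keratinocyte markers averaged 11.35 ± 0.09 in wild type and 11.22 ± 0.07 in cub at 24 h, with 1 of 8 called lower in cub. Of 15 hair follicle matrix and inner root sheath markers, 5 fell and 1 rose at 24 h in wild type and 6 fell in cub. The shares of all genes called lower were 22.4% in wild type and 24.9% in cub, and 20.5% were called higher in wild type. Of the same 15 markers, 2 were lower in cub than in wild type at 24 h. Of 7 sebaceous gland markers, 4 were lower in cub at 24 h and 3 of 7 fibroblast markers were higher. Between the genotypes at 24 h, 3.44% of all genes were called lower and 2.24% higher in cub. The part of these cell types in the cell division values was not tested.

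At 0 h the genotypes gave 0 calls among the 45 genes by limma, against 5.25% of all genes; 7 of the 45 had an unadjusted p under 0.05, against 18.4% of all genes, and the median difference was −0.03. Aurka stood at 7.07 ± 0.09 in wild type and 6.90 ± 0.02 in cub, and Mki67 at 9.29 ± 0.25 and 9.37 ± 0.06 (SD, n = 3 each). At 15 min the count was again 0, against 3.45% of all genes, with 4 of the 45 at an unadjusted p under 0.05, against 22.7% of all genes. Neither genotype had a called gene at 15 min against 0 h, where 0.0351% of all genes were called in wild type and 0.0251% in cub; 1 of the 45 genes in wild type and 0 in cub had an unadjusted p under 0.05, against 9.16% and 14.6% of all genes.

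At 2 h the cell division genes had barely moved. In wild type 1 of 45 fell, Mcm6, from 8.18, 8.17 and 8.22 to 7.88, 7.74 and 7.83 (−0.37 ± 0.09, limma adjusted p = 0.0109), against 7.97% of all genes called and 4% lower. Without wild-type 2 h replicate 2 it was not called. The difference lay below 0 for 40 of the 45 genes. In cub 1 of 45 rose, Ccne1, from 7.04, 6.98 and 7.13 to 7.43, 7.26 and 7.24 (0.26 ± 0.06, limma adjusted p = 0.00791), against 11.9% of all genes called and 7.66% higher.

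Ccne1 was also the 1 gene that differed between the genotypes at 2 h. It stood at 7.15, 7.08 and 6.94 in wild type, where every array was below the cub values just given, and the difference was 0.25 ± 0.06 (limma adjusted p = 0.023), against 4.41% of all genes called and 3.84% higher. So cyclin E1 was higher in cub at 2 h and lower in cub at 24 h. Both 2 h calls of Ccne1 were lost without cub 2 h replicate 1 and when only the groups compared were fitted, and the call between genotypes also without wild-type 2 h replicate 2 or 3; without the low array, cub 2 h replicate 2, 3 genes rose in cub and 3 were higher in cub than in wild type. Interactions at 15 min and 2 h gave 0 calls by limma, against 0% and 0.13% of all genes, and 0 and 6 of the 45 had an unadjusted p under 0.05, against 8.73% and 10.2% of all genes.

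Averaged over the 4 times, 6 of the 45 genes were lower in cub and 0 higher, against 18.3% of all genes called and 8.56% lower. They were Ccne2 (−0.27 ± 0.06), Aurkb (−0.20 ± 0.06), which encodes the kinase of the chromosomal passenger complex, Mcm6 (−0.16 ± 0.05), Mcm7 (−0.13 ± 0.04), Aurka (−0.13 ± 0.04) and Pcna (−0.11 ± 0.03). This count was 2 without cub 15 min replicate 3, and it shares its 24 h arrays with the direct comparison at 24 h.

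Other genes of the cell cycle were read from lists of 126 genes, of which 121 were measured. At 24 h, 72 of the 121 rose and 16 fell in wild type, 52 rose and 20 fell in cub, and between the genotypes 2 were higher and 28 lower in cub. Among all genes tested, 20.5% were called higher and 22.4% lower in wild type, and 21.1% and 24.9% in cub. Between the genotypes 2.24% of all genes were higher and 3.44% lower in cub. The same shares stand beside the counts of the smaller lists that follow. Other replication genes went the way of the 14: of 29, 25 rose in wild type and 19 in cub, 0 fell in either, and 11 were lower in cub. Of 54 other mitotic genes, 26 rose and 6 fell in wild type, 14 rose and 10 fell in cub, and 14 were lower in cub. At 0 h the replication gene Orc6 was called lower in cub (−0.32, limma adjusted p = 0.00419), in all 13 alternative settings. Plk3 (0.61, limma adjusted p = 0.0164) and Gadd45g (0.29, limma adjusted p = 0.0376) were higher, with calls lost in 4 and 6 settings. Of all genes, 5.25% were called there. At 15 min Orc6 (−0.27) and E2f5 (−0.35) were lower, with calls lost in 6 and 7 of 12 settings, beside 3.45% of all genes.

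Orc1, a subunit of the origin recognition complex, was at 5.13, 5.09 and 5.08 in wild type at 0 h and at 6.32, 6.57 and 6.58 at 24 h, a rise of 1.39 ± 0.11. At 24 h it was at 5.72, 6.16 and 5.55 in cub, a difference between the genotypes of −0.68 ± 0.11 (limma adjusted p = 0.000739), which was not called when only the 24 h arrays were fitted (adjusted p = 0.0597). The 0 h values of Orc1 and its cub mean at 24 h, 5.81, lie below the low-signal value of 6, so the size of these differences is uncertain. Fbxo5, which encodes Emi1, an inhibitor of the anaphase-promoting complex, was lower in cub (−0.75 ± 0.12, limma adjusted p = 0.000949), at 6.67 ± 0.16 against 7.42 ± 0.11. Stmn1, a protein that destabilises microtubules, was also lower (−0.62 ± 0.10, limma adjusted p = 0.00104).

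The atypical repressors E2f7 and E2f8, which shut E2F targets down late in S phase, rose in both genotypes. E2f7 went from 6.72, 6.87 and 7.02 to 8.21, 8.42 and 9.05 in wild type (1.69 ± 0.14) and from 6.80, 6.61 and 6.80 to 9.49, 9.19 and 9.17 in cub (2.55 ± 0.14). It was 1 of the 2 cell cycle genes higher in cub at 24 h, by 0.72 ± 0.14 (limma adjusted p = 0.00396), and this call was lost when only the 24 h arrays were fitted (adjusted p = 0.0986). E2f8 rose by 1.26 ± 0.13 in wild type and by 1.78 ± 0.13 in cub.

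Of 9 genes for inhibitors of cyclin-dependent kinases and pocket proteins, 2 rose and 6 fell in wild type and 1 rose and 5 fell in cub at 24 h; Cdkn1a was not analysed here. Of 11 genes of G1 entry, 7 rose in each genotype, 1 fell in wild type and 2 fell in cub. For both lists, the shares of all genes called higher and lower were 20.5% and 22.4% in wild type, and 21.1% and 24.9% in cub. Cdk6, a partner of D cyclins, rose by 1.03 ± 0.07 in wild type and by 1.18 ± 0.07 in cub. Ccnd1, or cyclin D1, was not called in either genotype, at 0.17 ± 0.07 in wild type and −0.10 ± 0.07 in cub. Wee1, the kinase that holds Cdk1 inactive, fell by 0.61 ± 0.13 in wild type and by 1.39 ± 0.13 in cub, there from 9.26, 9.44 and 9.18 to 7.73, 8.18 and 7.81.

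At 2 h, of 18 genes of antiproliferative brakes and DNA damage arrest, 8 rose in wild type and 10 in cub, and 0 fell. Of the 11 genes of G1 entry, 2 rose in wild type and 4 in cub, and 0 fell, against 3.98% and 7.66% of all genes called higher. Myc stood at 10.32, 10.49 and 10.54 in wild type at 0 h and at 11.60, 11.48 and 11.51 at 2 h, a rise of 1.08 ± 0.09 (limma adjusted p = 5.06e-08), and it rose by 1.1 ± 0.09 in cub (limma adjusted p = 3.5e-08). The antiproliferative gene Btg2 rose by 1.71 ± 0.12 in wild type and 1.43 ± 0.12 in cub, and the stress genes Gadd45g and Gadd45b rose in both, as did the kinase genes Plk2 and Plk3. By 24 h Myc was still raised, by 0.49 ± 0.09 in wild type and 0.60 ± 0.09 in cub. The 18 brake genes, which include E2f7, E2f8 and Wee1, were not raised at 2 h only. Their mean was 8.60 at 0 h, 9.01 at 2 h and 9.01 at 24 h in wild type. In cub it was 8.67, 9.05 and 9.12. Plk2 rose by 0.85 at 2 h and 1.17 at 24 h in wild type, and by 0.69 and 1.31 in cub.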

How the data were processed

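RNA of ear pinna was measured on 23 arrays of the Affymetrix type Mouse Gene 1.0 ST, in 8 groups of genotype and time. The authors deposited log2 values; the submitters' processing notes name RMA and Affymetrix Expression Console 1.1, while the summarization level and the build of the array annotation are not given in the sources used here. Of 35556 rows, 21789 carried 1 gene symbol, 1621 several and 12146 none, and only the first were used; GEO's platform annotation gave the symbols, and 21698 rows matched the GRCm38.p6 gene table. For 999 genes with several rows the row of highest mean stood for the gene, leaving 19938 genes.

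All arrays were fitted together in limma 3.58.1 (R 4.3.3) by group means, with 15 residual and 5.61 prior degrees of freedom. There were 14 contrasts, two-sided, with Benjamini-Hochberg adjustment over all genes in each and a threshold of 0.05. P values weigh a difference of group means against the spread within groups, pooled over all 8 groups and moderated over all genes. The number of arrays limits the precision. R/maanova, named in the labels, was not run. The code was tested on simulated data.

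The genes and lists were chosen with earlier results of these data known. Per comparison, up to 12 cell division and up to 6 other cell cycle genes with the largest called differences were eligible for naming. Mki67, Top2a, Cdk1, Ccnb1, Mcm2, Pcna, E2f1, Aurka, Cdkn1a, Ccnd1 and Myc were eligible whatever their values. Not every eligible result is described above. Interactions of Mki67, Top2a and Rrm2, and the other genes' levels, were added as description. Marker lists came from general knowledge. Motifs were exact matches in RefSeq promoter windows. Alternatives were median-centring, quantile normalization, a filter at a highest group mean of 6 (13741 genes), the mean of a gene's rows, fits of only the groups compared, fits with a block for the replicate number, trended robust moderation and each array left out in turn.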

Additional observations from a re-analysis of the deposited data

Results flagged for a closer look

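The change from 0 h to 24 h differed between the genotypes, by the interaction test in limma, for 5 cell cycle genes. Of these, 1 was from the list of 45 and the others were from the 121 measured genes of the other lists. Among all genes tested, 1% were called in this interaction. For Kif20a, the kinesin of the central spindle, the cub change minus the wild-type change was −0.65 ± 0.15 (SE, limma adjusted p = 0.0431). For the kinase gene Wee1 it was −0.77 ± 0.18 (limma adjusted p = 0.0435), and for the origin subunit gene Orc1 −0.62 ± 0.15 (limma adjusted p = 0.0493), with both 0 h means and the cub 24 h mean below the low-signal value of 6. For the repressor gene E2f7 it was 0.86 ± 0.20 (limma adjusted p = 0.0395). For Stmn1 it was −0.73 ± 0.14 (limma adjusted p = 0.0153). Of 19 alternative settings, the call was lost in 13 for Kif20a, 12 for Wee1, 15 for Orc1, 10 for E2f7 and 0 for Stmn1.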

How the results depend on the processing

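The counts at 24 h against 0 h stayed within 1.5 times their value in every setting: leaving out 1 array gave 25 to 33 called genes in wild type and 20 to 24 in cub, and the replicate block gave 29 and 24. The count between genotypes at 24 h was 12 under the block, 6 when only the groups compared were fitted, and 5 to 17 with 1 array left out. The average over the times ranged from 2 to 9, the 2 h difference between genotypes from 0 to 3, and the 0 h and 15 min differences from 0 to 1, with 1 array left out. The 2 h changes ranged from 0 to 2 in wild type and from 0 to 3 in cub, and the 15 min changes from 0 to 0 and from 0 to 1. The 24 h interaction ranged from 0 to 2, and it gave 0 calls under median-centring, quantile normalization and the replicate block. With only the groups compared, the 2 h count was 4 in wild type, 0 in cub and 0 between genotypes, and the wild-type 2 h count was 2 under quantile normalization and 2 under the filter. The sign turned, with neither gene called, for Mki67 in wild type at 24 h (−0.03 under quantile normalization, −0.12 without wild-type 0 h replicate 3, −0.08 without wild-type 24 h replicate 3, range −0.12 to 0.13 with 1 array left out) and for E2f1 in cub at 24 h (−0.04 without cub 0 h replicate 2, range −0.04 to 0.12). The cause of these changes was not tested, beyond the fewer arrays where arrays were left out. Not all of the 112 results eligible for naming are described above. Of the 112, 76 never changed their call or direction, 29 lost a call in some setting, 5 gained one and 2 turned. Same-numbered arrays did not deviate together consistently (correlations from −0.3 to 0.41 over 28 pairs, 9 of them over 0.1). Both pairs of cub at 15 min and 0 h were positive, at 0.25 and 0.41. Arrays recur among the pairs, so the correlations are not separate results. The replicate numbers were not taken to pair samples. The number of arrays, 2 or 3 a group, limits what could be called.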
